A study of Mus musculus with 3 samples.

Results

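Mitochondrial ribosomal proteins were taken as all protein-coding genes of the count table whose symbol begins with Mrpl or Mrps followed by a number, which gave 78 of the 50686 genes listed. Of these, 49 carry the symbol of a large subunit protein and 29 that of a small subunit protein. Their transcripts were analysed in 3 stable BCR::ABL1+ cell lines, numbered 1 to 3 by replicate, of the genotype K43M, a homozygous *Cdk6* allele that encodes kinase inactive CDK6. The lines were raised from bone marrow of C57BL/6 mice by retroviral transduction of BCR-ABL(p185), grew out as B-lymphoid precursor cells (Pre/Pro-B-cells in the sample record) and share the oncogene, the vector and the culture medium. Each line is an outgrowth of transduced marrow, and neither the age of the mice nor the number of cells that founded a line is given in the sources used here. Lines with wildtype *Cdk6* or without *Cdk6* were not analysed here, so levels and their spread over the K43M lines are described and no effect of the genotype is given.

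Mitochondria translate a small set of membrane proteins of the respiratory chain and of ATP synthase with a ribosome of their own. Its rRNAs come from mitochondrial DNA, whereas every one of its proteins is encoded in the nucleus, made in the cytosol and imported. Some of these proteins have a counterpart in bacteria, and others were added in the mitochondrial lineage. The large subunit forms the peptide bonds, and the small subunit reads the mRNA.

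Counts on genes summed to between 19633463 and 25773221 per library, so a gene with 0 counts may have had up to 3, or 0.116 to 0.153 CPM (counts scaled to library size), counting error only. B-lineage genes were abundant, with 8 of 9 markers at 1 CPM or more in every line. In contrast, of 4 T cell, 5 myeloid and 4 stromal or epithelial markers none reached 1 CPM in any line. The highest of them was the epithelial *Epcam*, at 0.707 CPM in line 3. Of 4 erythroid markers *Hbb-bt* had 2.17, 4.26 and 6.32 CPM in lines 1, 2 and 3 and *Hba-a1* had 0 counts in every line, so the summed erythroid level ranged from 2.49 to 6.48 CPM. Their part in the results was not tested. *Cdk6*, which lies on chromosome 5, was at 450, 334 and 239 CPM, and counts per gene do not show the K43M codon. The order of the lines among other genes of that chromosome is given below.

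To show where the transcripts start, promoters of RefSeq (build GRCm38.p6, 250 bases before to 50 bases after each start) were matched to 69 of the 78 genes, with 75 promoters in all. The exact letters GCATGCGC, the core of the motif of NRF-1, a transcription factor known to act on nuclear genes of mitochondria, were present on either strand in 8 of the 75 promoters (10.7%). They were present in 5.34% of 11619 promoters of other protein-coding genes that passed the count filter given below and in 2.71% of all 32851 promoters. All but 1 of the 8 belong to the large subunit (7 of 48 promoters, 14.6%, against 1 of 27, 3.70%). The genes are *Mrpl9*, *Mrpl10*, *Mrpl17*, *Mrpl22*, *Mrpl32*, *Mrpl33*, *Mrpl39* and *Mrps18b*. Stretches are printed for *Mrpl32* and *Mrpl33*, which had the widest ranges between the lines, and for *Mrpl9*, *Mrpl10* and *Mrpl22* as examples of the other large subunit genes. *Mrpl17* and *Mrpl39* also have matches before the start, 3 and 115 bases from it. The stretches are read in the direction of the gene, with the match in capitals. Those of *Mrpl32* lie 77 and 14 bases before its start, with a further match 58 bases before it, that of *Mrpl33* 4 bases, that of *Mrpl22* 25 bases, that of *Mrpl9* 18 bases and that of *Mrpl10* 126 bases. In *Mrpl9* and in the first stretch of *Mrpl32* a match on the other strand overlaps the one shown by all but 2 letters.
Mrpl9 (chr3:94443300-94443327, plus strand): gcgcagctgcGCATGCGCggggtccttc
Mrpl10 (chr11:97041438-97041465, plus strand): ccagctccacGCATGCGCatagcggccc
Mrpl22 (chr11:58171621-58171648, plus strand): gcctcggactGCGCATGCgtatagtcag
Mrpl32 (chr13:14613105-14613132, minus strand): tgacccttgcGCATGCGCaagaggggcc
Mrpl32 (chr13:14613042-14613069, minus strand): cggacttaacGCATGCGCtcagcccgcg
Mrpl33 (chr5:31613929-31613950, plus strand): accggaacccGCGCATGCcccg

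The other motifs were searched in the same way. CCGGAAGT, the core bound by ETS factors, was in 12 of the 75 promoters (16.0%), against 8.29% of the promoters of other expressed protein-coding genes and 3.89% of all promoters. AAGATGGCG, the core of YY1, was in 8 (10.7%), against 3.06% and 1.40%. GGGGCGGGG, bound by SP1, was in 15 (20%), against 21.2% and 11.4%, and CCAAT, bound by NFY, was in 30 (40.0%), against 38.3% and 37.4%. Over all 75 promoters, NRF-1, ETS and YY1 letters were thus more frequent than in both backgrounds, and SP1 and NFY letters were about as frequent as in other expressed genes. For NRF-1 this rests on the large subunit, since the small subunit (1 of 27 promoters, 3.70%) lay below the 5.34% of other expressed genes. Between the subunits, ETS letters were in 16.7% of large and 14.8% of small subunit promoters and YY1 letters in 8.33% and 14.8%. Both strands were searched for each motif, and none of the 5 contains another. A match describes the letters in the window and no binding, and a missing match says nothing about the factor.

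**Figure D1:**
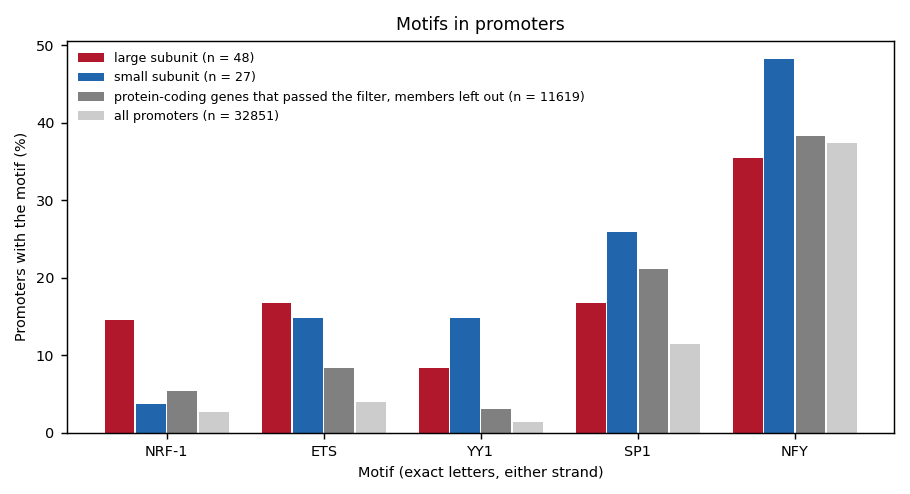
Share of promoters (%, y axis) that hold the exact letters of 5 motifs on either strand (x axis), for large and small subunit genes, other protein-coding genes that passed the count filter and all promoters. NRF-1 letters were in 14.6% of large and 3.70% of small subunit promoters, and NFY letters in 35.4% and 48.1%, against 5.34% and 38.3% of other expressed genes.

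Many of these genes start beside another gene. For 33 of the 78 (42.3%) the annotated 5′ end of a protein-coding gene on the opposite strand lay within 1000 bases, against 10.8% of all protein-coding genes, 17.4% of those that passed the count filter and 19.2% of those of at least 10 CPM. This was so for 24 of 49 large and 9 of 29 small subunit genes. Since *Mrps11* and *Mrpl46*, a small and a large subunit gene, face each other, the 33 genes form 32 pairs, and in 14 of these the annotated transcripts overlap at their starts. Of the 32 pairs, 4 are named for the function of the neighbour. *Mrps12* starts beside *Sars2*, the mitochondrial seryl-tRNA synthetase, *Mrpl43* beside *Twnk*, the helicase of mitochondrial DNA, and *Mrpl36* and *Mrpl47* beside *Ndufs6* and *Ndufb5*, which encode subunits of respiratory complex I. The stretches between the RefSeq starts of 2 of these pairs, free of annotated exons, are given to show such shared upstream sequence. They are written toward the ribosomal protein gene, with the letters of NFY in capitals for *Mrps12*, where they occur 3 times in 146 bases, and those of ETS in capitals for *Mrpl43*, where they occur once in 115 bases, just before its start.
Mrps12 from Sars2 (chr7:28741822-28741967, minus strand): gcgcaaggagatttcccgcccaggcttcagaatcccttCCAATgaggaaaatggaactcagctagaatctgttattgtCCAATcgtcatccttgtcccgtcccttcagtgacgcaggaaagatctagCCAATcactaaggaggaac
Mrpl43 from Twnk (chr19:45006443-45006557, minus strand): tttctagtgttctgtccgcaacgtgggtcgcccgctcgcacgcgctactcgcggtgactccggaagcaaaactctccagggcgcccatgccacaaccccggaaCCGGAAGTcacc

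The levels were as follows. Summed over its genes, the large subunit took 0.337%, 0.328% and 0.329% of the counts in lines 1, 2 and 3, or 0.331% ± 0.00492 (SD, n = 3). The small subunit took 0.165%, 0.157% and 0.161%, or 0.161% ± 0.00407. Line 1 was highest and line 2 lowest for both. For comparison, 36 nuclear complex I genes took 0.322% ± 0.00514 and 76 cytosolic ribosomal protein genes 1.58% ± 0.0474.

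All members but *Mrpl53* were at 1 CPM or more in every line. To compare genes, counts were divided by the length of their merged exons and scaled to the same sum in each library (TPM, the counterpart of CPM per length). The median level per length was 102 ± 1.12 TPM over the 49 large subunit genes and 69.9 ± 2.25 TPM over the 29 small subunit genes, a ratio of 1.46 ± 0.0338. With the length of the transcript that has the longest coding sequence the ratio was 1.19, and without genes that share sequence with others it was 1.25, so the large subunit median was above the small subunit median under each of them and the size of the gap moved. Protein-coding genes of at least 10 CPM had a median of 49.3 TPM, cytosolic ribosomal proteins of 107 TPM and complex I genes of 210 TPM. Single cytosolic ribosomal protein genes ran from 0 to 4973 TPM, with quartiles of 25.9 and 352 TPM. Sequence that they share with other genes was not searched for, so their median and their share of the counts are uncertain. Within the small subunit, the 18 genes with a bacterial counterpart had a median of 88.5 ± 6.33 TPM and the 11 without one 44.0 ± 1.84 TPM. With the length of the main transcript (longest coding sequence) these medians were 96.6 and 57.5 TPM, in the same order. In the large subunit the order rested on the length, since the 28 genes with a counterpart had a median of 93.0 ± 1.57 TPM and the 21 without one 114 ± 1.39 TPM on merged exons, but 120 and 102 TPM on the main transcript.

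The most abundant transcript per length was *Mrpl12*, which encodes the protein of the ribosomal stalk that engages translation factors and is present in several copies per ribosome. It was at 481, 466 and 438 TPM in lines 1, 2 and 3, or 462 ± 22.0 TPM. The next 5 of the large subunit lay between 268 and 318 TPM. *Mrpl20* was at 318 ± 18.8 TPM, *Mrpl18* at 315 ± 8.47 TPM and *Mrpl54* at 310 ± 8.93 TPM, so these 3 did not differ beyond their spread, and *Mrpl28* (270 ± 3.55 TPM) and *Mrpl34* (268 ± 21.4 TPM) did not either. The lead of *Mrpl12* rests on the length used, since on the transcript with the longest coding sequence it was at 350 TPM, *Mrpl20* at 426 TPM and *Mrpl42* at 361 TPM. The next 5 rest on it too, since on that transcript *Mrpl52* was at 310 TPM and *Mrpl34* at 174 TPM. In the small subunit *Mrps28* (245 ± 8.29 TPM), *Mrps23* (204 ± 9.47 TPM), *Mrps21* (192 ± 3.00 TPM), *Mrps7* (178 ± 2.62 TPM), *Mrps27* (168 ± 25.1 TPM) and *Mrps15* (133 ± 21.9 TPM) were highest on merged exons. Their order also rests on the length, since on the main transcript *Mrps18a* was highest at 286 TPM, followed by *Mrps21* at 189 TPM and *Mrps9* at 185 TPM, with *Mrps28* at 160 TPM, *Mrps23* at 155 TPM and *Mrps27* at 124 TPM. *Mrps12*, whose bacterial counterpart sits at the decoding centre, was at 119, 119 and 137 TPM.

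At the low end, *Mrpl23*, the counterpart of a protein at the bacterial exit tunnel, was at 4.54, 3.33 and 4.21 TPM, *Mrps36* at 6.74, 5.60 and 5.07 TPM and *Mrps33* at 13.3, 10.5 and 8.10 TPM. The protein of *Mrps36* is now assigned to the 2-oxoglutarate dehydrogenase complex and not to the ribosome. *Mrpl48* (15.3 ± 1.95 TPM), *Mrps10* (17.9 ± 1.41 TPM), *Mrpl32* (18.1 ± 7.95 TPM), *Mrpl33* (20.4 ± 5.06 TPM) and *Mrps35* (25.3 ± 0.849 TPM) complete the lowest 4 of each subunit. Several of these values rest on how reads were assigned or on the length. Of the 50-base stretches of the main *Mrpl23* transcript, 66.7% also occur in another gene, among them its processed pseudogene *Mrpl23-ps1*, which had 3, 0 and 2 counts. With the length of the main transcript *Mrpl23* was at 17.4 TPM. On that length *Mrps10* was at 92.6 TPM and *Mrpl33* at 44.6 TPM, no longer among the lowest 4 of their subunits.

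*Mrpl53* had 0, 2 and 2 counts, within the 3 counts that a count of 0 allows. All of its stretches (100%) occur in *Gm42688*, a protein-coding gene annotated over it, which had 49, 43 and 59 counts, so a level of *Mrpl53* cannot be given. The same holds in part for 3 small subunit genes. *Mrps34* shares 77.8% of its stretches, mostly with the overlapping *Mapk8ip3*, *Mrps25* shares 73.9%, mostly with *Nr2c2*, and *Mrps18b* shares 63.7% with the antisense gene *Gm16279* and a pseudogene. The strand setting of the counting is not given in the sources used here, so their levels (90.3 ± 7.05, 34.3 ± 1.74 and 63.5 ± 3.42 TPM) are uncertain.

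The bacterial protein S18 has 3 counterparts in mammals, of which that of *Mrps18a* sits in the large subunit of the assembled ribosome despite its symbol, as does the protein of *Mrps30*. *Mrps18a* was at 114, 95.6 and 107 TPM and *Mrps18c* at 129, 100 and 85.3 TPM, with means of 105 ± 9.16 and 105 ± 22.5 TPM on merged exons. On the main transcript they were apart, at 286 and 115 TPM. *Mrps18b* was at 65.8, 59.5 and 65.0 TPM, below both in every line, and at 79.9 TPM on the main transcript. Counted in the large subunit, *Mrps18a* and *Mrps30* bring its share of the counts to 0.349% and that of the small subunit to 0.143%.

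**Figure D2:**
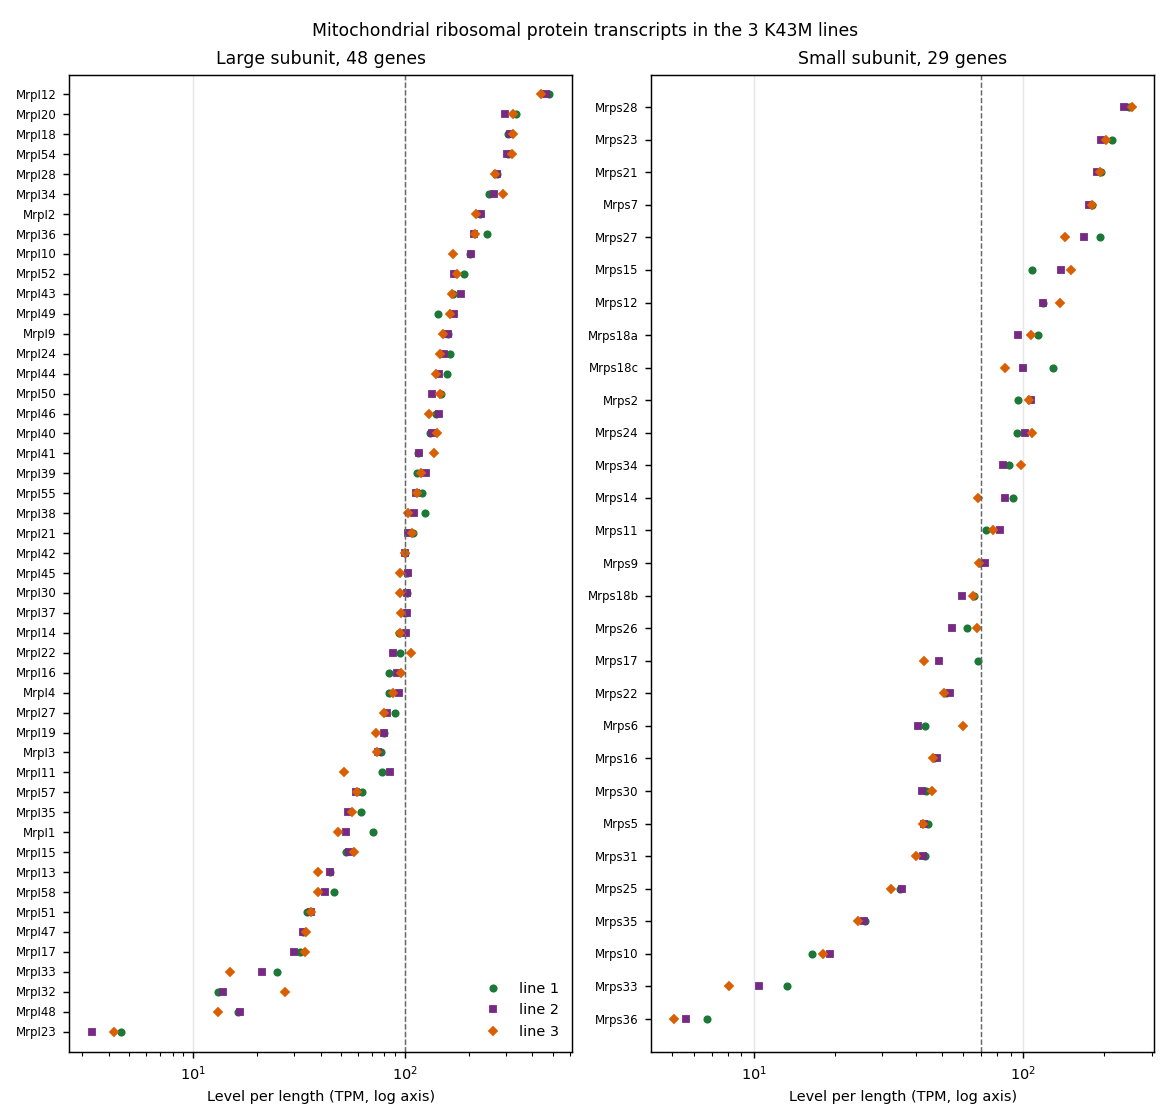
Level per length (TPM, log axis) of each member at 1 CPM or more in every line, ordered by the mean over lines within the large subunit (48 genes, left) and the small subunit (29 genes, right). Each point is 1 K43M line and the dashed line is the median of the genes shown. *Mrpl12* is highest at 462 ± 22.0 TPM, *Mrpl23* lowest at 4.03 ± 0.628 TPM, and for most genes the 3 lines lie close together.

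The spread between lines was below that of most genes. Of the 78 genes, 77 passed the filter of at least 10 counts over the lines. The median SD of log2(CPM + 1) was 0.0736 over the large and 0.10 over the small subunit genes, against 0.169 over all 13974 genes tested and 0.144 over 8389 protein-coding genes of at least 10 CPM. Complex I genes had 0.0654 and cytosolic ribosomal proteins 0.107. edgeR's biological coefficient of variation had medians of 0.156 and 0.173, against 0.279 over all genes tested and 0.178 over protein-coding genes of at least 10 CPM, close to that of the small subunit. *Mrpl2*, whose bacterial counterpart is needed for the peptidyl transferase centre, was at 68.6, 68.7 and 68.2 CPM and varied least. The genes of the large subunit deviated from their mean over lines by a median of 0.02, -0.03 and 0.01 on the log2 scale in lines 1, 2 and 3, and those of the small subunit by 0.00, -0.04 and 0.04. Line 2 was the lowest for 31 of the 77 genes, line 3 for 26 and line 1 for 20.

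Counts of 46 of the 77 genes differed between the libraries beyond counting noise (28 of 48 large and 18 of 29 small subunit genes, chi-square test of homogeneity with Benjamini-Hochberg adjustment at 0.05), a share of 59.7%. The test called 66.8% of all genes tested and 81.2% of protein-coding genes of at least 10 CPM, so these genes were not called more often than others. It compares libraries and not conditions. With line 1 left out 18 large subunit genes were called, and with line 3 left out 13 large and 9 small subunit genes were called, in tests of 2 libraries in place of 3. With line 1, 2 or 3 left out, 41.6%, 45.5% and 28.6% of the 77 genes were called, against 54.3%, 54.5% and 47.1% of all genes tested in the same way. A range of at least 1.5-fold on the log2(CPM + 1) scale was seen for 4 of the 77 genes (5.19%), namely *Mrpl32*, *Mrpl33*, *Mrpl11* and *Mrps17*, against 24.5% of all genes tested and 18.7% of protein-coding genes of at least 10 CPM.

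**Figure D3:**
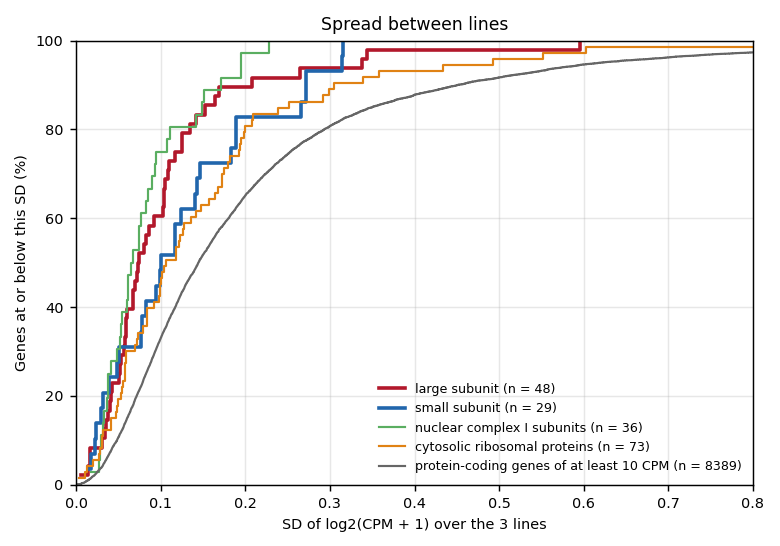
Cumulative share of genes (%, y axis) by their SD of log2(CPM + 1) over the 3 K43M lines (x axis), for the large and small subunit, nuclear complex I subunits, cytosolic ribosomal proteins and protein-coding genes of at least 10 CPM. The curves of both subunits rise before that of the expressed protein-coding genes, with medians of 0.0736 and 0.10 against 0.144; SDs above 0.8 lie outside the axis.

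The largest range was that of *Mrpl32*, a protein that is matured by a protease in the inner membrane before it joins the large subunit. *Mrpl32* (ENSMUSG00000015672.3, chromosome 13, 14608184 to 14613165 on the minus strand of GRCm38) was at 16.9, 17.7 and 36.3 CPM. Line 3 stood above the other lines, which lay close together, by a range of 1.06 on the log2 scale (chi-square test of homogeneity, Benjamini-Hochberg adjusted p = 1.65e-50). *Psma2*, a proteasome subunit that starts 75 bases from it on the opposite strand, was at 118, 116 and 238 CPM, so the pair was high in the same line. The median deviation of expressed genes within 5 Mb was -0.33, -0.01 and 0.49 in lines 1, 2 and 3, and the range of *Mrpl32* after its subtraction was 0.50.

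Some of the other genes of wide range had chromosomal neighbours that moved in the same way, and some had neighbours that did not. Of the first kind are the 4 members on chromosome 5. *Mrps17* (ENSMUSG00000034211.14, 129715497 to 129722556) was at 113, 81.2 and 74.6 CPM (adjusted p = 9.71e-47, same test), *Mrpl33* (ENSMUSG00000106918.3, 31596935 to 31664384) at 47.2, 39.7 and 29.4 CPM (adjusted p = 1.45e-21), *Mrps18c* (ENSMUSG00000016833.14, 100798627 to 100804471) at 35.9, 27.6 and 24.5 CPM (adjusted p = 6.49e-12) and *Mrpl1*, the protein of the stalk beside the exit site of tRNA (ENSMUSG00000029486.13, 96209493 to 96266727), at 78.2, 57.9 and 55.6 CPM (adjusted p = 2.05e-23). All 4 were highest in line 1 and lowest in line 3. *Helq*, which starts 29 bases from *Mrps18c* on the opposite strand, was at 53.8, 42.0 and 38.8 CPM, in the same order.

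Other genes of chromosome 5 shared this order. Of 567 protein-coding genes of at least 10 CPM on it, with genes of mitochondrial translation left out, 88.9% were highest in line 1, whereas on the other 18 autosomes between 18.2% and 39.0% were. The order of line 1 highest and line 3 lowest was seen for 62.8% of these 567 genes and for 14.2% of 7402 genes of the other autosomes, and for 14 of the 73 members elsewhere (19.2%). The 4 members had median deviations of 0.30, -0.09 and -0.23, close to those of the 567 genes at 0.27, -0.07 and -0.19. Over 5 members whose neighbours ranged by at least 0.3 on the log2 scale (the 4 on chromosome 5 and *Mrpl32*; *Mrpl36* at 0.296 was next), subtracting the neighbours' median lowered the median SD from 0.315 to 0.0381. The SD left was 0.249 for *Mrpl32* and 0.138 for *Mrpl33*, above that median, and for *Mrpl36* it went from 0.105 to 0.098. Over the other 72 it went from 0.0791 to 0.0802. The number of copies of chromosome 5 in each line was not measured here, and its part in these values was not tested. Other chromosomes also set lines apart. On the X chromosome, which holds no member, the median deviations of 273 such genes were -0.28, -0.17 and 0.50, so line 3 was high there, and 3 genes on the Y chromosome, which holds none either, had medians of 1.67, 1.80 and -3.61. On chromosome 13, where *Mrpl32* lies, 47.7% of 283 genes ranged by at least 1.5-fold, against 15.8% over the autosomes other than 5. The part of these differences in the values of the members was not tested.

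The same order ran through the other genes of mitochondrial translation on chromosome 5. These are *Rcc1l*, *Noa1*, *Gtpbp6*, *Gtpbp10* and *Mrm2*, which act in assembly of the ribosome or modify its rRNA, and the factors *Mtif3* and *Guf1*. *Rcc1l* was at 112, 76.1 and 72.5 CPM, *Noa1* at 132, 112 and 98.1 CPM, and *Guf1* at 115, 85.8 and 67.2 CPM. With the 4 members, 11 of 11 such genes were highest in line 1 and lowest in line 3, against 32 of 129 on other chromosomes (24.8%). On chromosome 5 itself, 62.8% of the 567 genes given above had this order, so it is not particular to genes of mitochondrial translation.

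**Figure D4:**
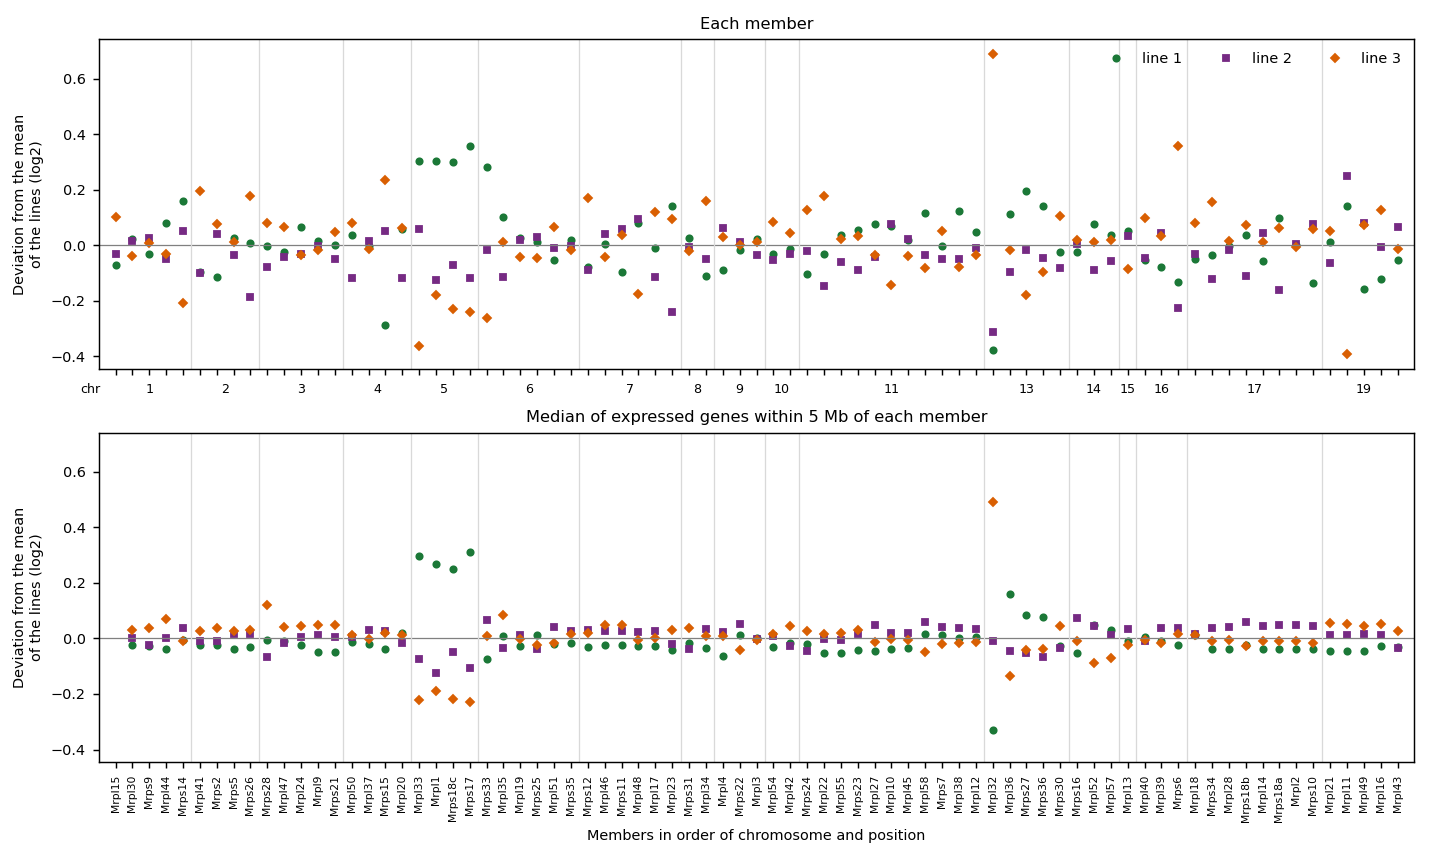
Deviation of each K43M line from the mean of the lines (log2(CPM + 1), y axis) for the 77 members that passed the filter (top) and for the median of expressed genes within 5 Mb of each (bottom), in order of chromosome (number between the panels) and position. *Mrps17*, *Mrpl1* and *Mrps18c* on chromosome 5 deviate together with their neighbours. *Mrpl33* on chromosome 5 and *Mrpl32* on chromosome 13 deviate in the same direction as their neighbours in lines 1 and 3 and lie apart from them in line 2. *Mrpl11*, *Mrps6* and *Mrps15* deviate and their neighbours stay near 0. *Mrpl15* had too few neighbours for a value.

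Of the second kind, *Mrpl11* (ENSMUSG00000024902.4, chromosome 19, 4962147 to 4966999), the counterpart of a protein at the base of the bacterial stalk, was at 65.0, 70.2 and 44.6 CPM (adjusted p = 2.27e-31, same test). Line 3 was low, and the medians of its neighbours ranged by only 0.10 against 0.64 for the gene itself. *Mrps6* (ENSMUSG00000039680.9, chromosome 16, 92058270 to 92112227) was at 17.1, 16.0 and 24.4 CPM, high in line 3 (adjusted p = 3.67e-11), with a neighbours' range of 0.06. *Mrps15* was at 47.2, 60.0 and 68.3 CPM, low in line 1 (adjusted p = 2.8e-19), with a neighbours' range of 0.07. Line 3 was thus lowest for *Mrpl11* and highest for *Mrps6* and *Mrps15*. *Mrps27*, a pentatricopeptide repeat protein of the small subunit, was at 104, 89.8 and 80.0 CPM, and *Ptcd2*, 81 bases from it on the opposite strand, at 83.6, 65.7 and 65.2 CPM. *Mrps27* lies on chromosome 13 and between these kinds. Its neighbours were also high in line 1, with median deviations of 0.09, -0.05 and -0.04 and a range of 0.14. Subtracting them lowered its SD from 0.189 to 0.128.

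*Mrps33* was at 5.71, 4.46 and 3.61 CPM from 124, 88 and 92 counts (adjusted p = 0.00579), *Mrpl22* at 24.1, 22.1 and 27.9 CPM (adjusted p = 0.000619) and *Mrpl23* at 5.71, 4.16 and 5.50 CPM (adjusted p = 0.0825, same test). *Mrps6* and *Mrps33* differed by 1.53-fold and 1.58-fold between their highest and lowest CPM but stayed under 1.5-fold on the log2(CPM + 1) scale, which understates changes of low genes. *Mrpl22* and *Mrps6* share 33.4% and 32.2% of their stretches with other genes.

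Over the 30 pairs whose neighbour on the opposite strand passed the filter, the member ranged less than its neighbour in 21. The median range was 0.13 for the members and 0.36 for the neighbours, of which 7 (23.3%) had a range of at least 1.5-fold, against 1 of the members. That share of the neighbours is near the 24.5% of all genes tested and 18.7% of protein-coding genes of at least 10 CPM. Of these 7, *Psma2* and *Rab6a* were above their member in CPM in every line and the others below it. *Klc4*, for example, was at 5.25, 8.51 and 9.86 CPM beside *Mrpl2* at 68.6, 68.7 and 68.2 CPM. The part of the level in these ranges was not tested. In the pair of *Mrps11* and *Mrpl46* both genes are members, and *Mrps11* was counted as the neighbour. *Mrpl54* was at 65.1, 64.1 and 70.6 CPM beside *Apba3* at 10.9, 22.8 and 22.5 CPM, and *Mrpl44* at 67.0, 61 and 61.8 CPM beside *Wdfy1* at 41.3, 15.4 and 48.4 CPM. *Mrps12* was high in line 3 (31.8, 31.6 and 38.0 CPM), where *Sars2* was low (44.1, 44.5 and 31.3 CPM). Per length, *Mrps11* was at 73.1, 82.1 and 77.4 TPM and *Mrpl46* at 140, 144 and 130 TPM. A shared start was thus found with members and neighbours that were high in the same line and with others that were not.

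**Figure D5:**
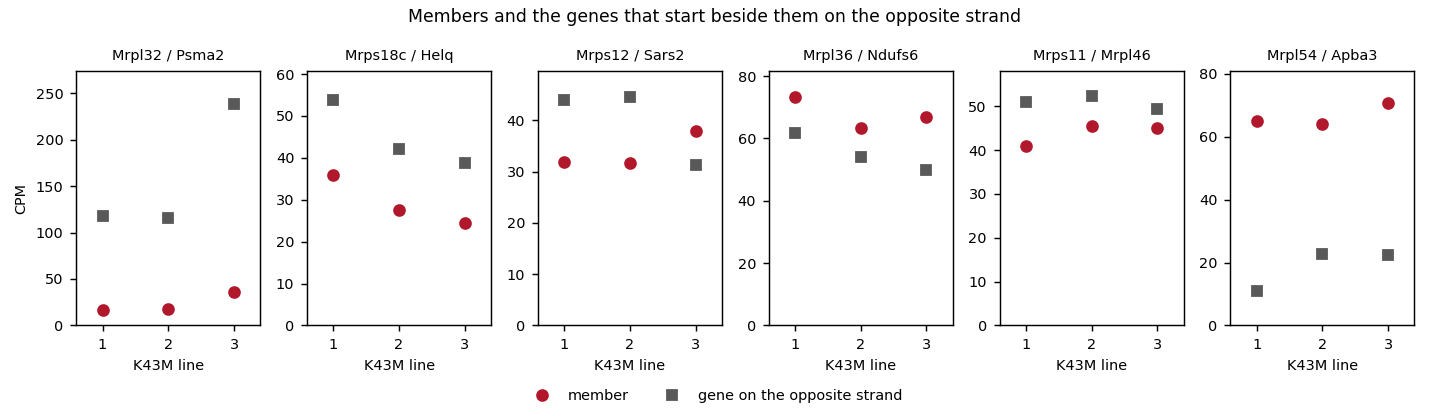
Level in CPM (y axis from 0, scale set for each panel) of 6 members (circles) and of the gene that starts beside each on the opposite strand (squares) in K43M lines 1 to 3 (x axis). *Mrpl32* and *Psma2* are both high in line 3 and *Mrps18c* and *Helq* both high in line 1, whereas *Sars2* is low in line 3 where *Mrps12* is high.

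The ribosome holds further proteins whose symbols follow another pattern. *Chchd1* was at 382 ± 7.85 TPM, on the length of merged exons higher than every member but *Mrpl12*, *Aurkaip1* at 225 ± 5.55 TPM, *Gadd45gip1* at 124 ± 8.0 TPM, the pentatricopeptide repeat protein *Ptcd3* at 84.2 ± 5.16 TPM and the GTP-binding *Dap3* at 67.0 ± 2.60 TPM. Counts of 3 of these 5 differed between libraries and 0 ranged by at least 1.5-fold. The rRNAs *mt-Rnr1* and *mt-Rnr2* were at 134, 146 and 112 CPM and at 296, 319 and 318 CPM. Since the libraries were made from poly(A) RNA, these values do not measure the amount of rRNA.

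Genes that build the ribosome or work with it are given beside the same backgrounds, of which 66.8% and 81.2% differed and 24.5% and 18.7% ranged by at least 1.5-fold over all genes and over protein-coding genes of at least 10 CPM. Of 26 assembly genes, 15 differed between libraries (57.7%) and 6 ranged by at least 1.5-fold (23.1%), 3 of them on chromosome 5, with a median SD of 0.144, the same as for protein-coding genes of at least 10 CPM. *Rbfa* was highest (188 ± 22.8 TPM) and *Ybey* lowest (5.97 ± 1.85 TPM). *Rbfa* shares 41.9% of its stretches with an overlapping gene, so its level is uncertain. *Mterf3*, a factor of large subunit biogenesis, was at 73.4, 38.0 and 28.1 CPM, with line 1 above the others, and *Mettl15*, a methyltransferase of the small subunit rRNA, at 4.42, 5.93 and 8.29 CPM. Of 15 translation factors 12 differed (80%) and 2 ranged by at least 1.5-fold (13.3%), with a median SD of 0.121. The elongation factor *Gfm1* was highest (159 ± 10.7 TPM) and *Mtif3* (15.7 ± 2.14 TPM) and *Mrrf* (15.9 ± 1.46 TPM) lowest, within their spread, while the release factor *Mtrf1* was at 21.3, 9.48 and 8.56 CPM. Of 17 mitochondrial aminoacyl-tRNA synthetases 12 differed (70.6%) and 2 ranged by at least 1.5-fold (11.8%), with a median SD of 0.133. *Lars2* was at 92.4 ± 11.6 TPM, with *Iars2* (88.5 ± 3.12 TPM) and *Rars2* (87.3 ± 4.05 TPM) within its spread, and *Fars2* at 6.53 ± 1.42 TPM, not apart from *Wars2* (6.92 ± 1.98 TPM). *Wars2* was at 7.42, 13.4 and 11.3 CPM, low in line 1. The differences in spread between these lists and the ribosomal proteins were not tested.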

How the data were processed

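Poly(A) RNA of 3 K43M cell lines was sequenced. The authors trimmed reads with Trimmomatic, used STAR for alignment to mm10 and FeatureCounts for reads on exons of Gencode M13, and the deposited values are raw counts per gene without normalization. The kit is TruSeq in the paper and SENSE mRNA-Seq in the sample record, where single-end reads are 50 bases long. The strand setting and the treatment of reads with several matches are not given in the sources used here. The count table holds 6 further columns of other samples, which were not used.

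Genes were matched by identifier to Gencode M21 of the same assembly (50462 of 50686), and 0 rows named no gene. Exon lengths also came from M21. Libraries had 21569845, 19633463 and 25773221 counts. A gene needed 10 counts over the lines, and libraries were scaled by TMM in edgeR 4.0.16 (R 4.3.3). Spreads are of log2(CPM + 1), and the coefficient of variation is edgeR's tagwise value from a fit with an intercept only. Counts of each gene were set against the normalized library sizes by a chi-square test of homogeneity with Benjamini-Hochberg adjustment at 0.05 over 13974 genes, since 1 group gives no contrast to test. Whether replicates are separate cultures beyond being named cell lines is not stated. The p-values measure only how far the counts of these libraries depart from counting noise, and not the size of the spread. Between lines 1 and 2, the closest pair, 6102 genes differed, and no library was taken for a duplicate. The test was checked on simulated data. Neighbours were genes within 5 Mb whose log2(CPM + 1) averaged 2 or more, and 10 of them were required. For shared sequence, stretches of 50 bases were cut from each gene's main transcript (that of the longest coding sequence) and searched in the transcripts of all other genes. Scripts ran in Python 3.11.15 (scipy 1.17.1, pandas 2.3.3, numpy 2.4.6).

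The members, gene lists, motifs and comparisons were chosen with earlier results of these data known. Genes named are, within each subunit, the 6 highest and 4 lowest by level per length and the 6 of largest range, all at 1 CPM or more in every line; every member below that; *Mrps18a*, *Mrps18b*, *Mrps18c*, *Mrpl12* and *Mrps12*; members sharing at least 50% of stretches; *Dap3*, *Ptcd3*, *Chchd1*, *Aurkaip1* and *Gadd45gip1*; and of each other list the highest, the lowest and the 2 of largest range, of which 1 is not reported here. *Mrpl2*, *Mrpl42*, *Mrpl52*, *Slirp*, *Tufm*, the divergent pairs, genes with a motif and genes of chromosome 5 were named with their values known. The alternatives tried were scaling by DESeq2 1.42.0 or by library size only, dropping the filter or asking for 10 counts in each line, 0.1 CPM as pseudocount, another gene length, leaving out genes that share at least 20% of stretches, and leaving out each line in turn.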

Additional observations from a re-analysis of the deposited data

How the results depend on the processing

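No paired analysis was possible because all 3 lines are of 1 genotype. Counts of differing genes moved by over 1.5 times when lines were left out, in tests of 2 libraries. They ranged from 13 to 21 for the large subunit (28 with all lines; 18 without line 1, 13 without line 3) and from 9 to 14 for the small subunit (18 with all lines; 9 without line 3). The ratio of large to small subunit level per length was 1.19 with the length of the main transcript (longest coding sequence) and 1.25 without genes that share at least 20% of stretches, of which each subunit has 8. Leaving those genes out lowered the shares of counts to 0.291% and 0.138% by construction. With *Mrps18a* and *Mrps30* in the large subunit, an alternative chosen after seeing the data, they were 0.349% and 0.143%. The other 107 recomputed values, among them the subtraction of the neighbours' median, also chosen after seeing the data, kept within the limits set for a change. Small differences still changed order or sign within these limits. With the neighbours' median subtracted, the median SD was 0.0802 for the large and 0.0784 for the small subunit. The median deviations of the small subunit were then 0.0283, -0.0276 and 0.00293 in lines 1, 2 and 3. With library size only, that of the large subunit in line 3 was -0.00357.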
